A study of Homo sapiens with 5 samples.

Results

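In LM2 cells, 412 stretches of DNA away from annotated transcription start sites (TSSs) were covered at once by ChIP-Seq peaks of Fra-1, MYC and E2F1. LM2 is a derivative of the triple-negative breast cancer line MDA-MB-231 that metastasizes to the lung, and its cells are given as untreated in the labels, although a legend in the study ties the lysates for ChIP-Seq to cells with a control vector or a knockdown. The regions were chosen by the peak calls themselves: a region is a stretch where peaks of all 3 factors share at least 1 bp and which touches no window from 2 kb upstream to 2.5 kb downstream of any annotated TSS. These distal regions made up 40.1% of the 1027 stretches with all 3 factors on chromosomes 1 to 22 and X, and the other 615 touched a promoter window. The regions are numbered D1 to D412 by their smallest fold enrichment among the 3 factors, from the largest down. Each factor was measured in 1 library against 1 shared input library, so there is no replicate spread, and every interval and p-value below compares regions of these libraries and not cultures.

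Fra-1, encoded by FOSL1, is a member of the FOS family that binds DNA as a dimer with a JUN protein, and these AP-1 dimers recognise the sequence TGACTCA, most often in enhancers. MYC binds DNA with its partner MAX at the E-box CACGTG and is found mainly at active promoters. E2F1 drives genes of the cell cycle and DNA replication and recognises a GC-rich site, and it too is known mainly from promoters. Distal here is a matter of position alone, because histone marks that tell enhancers from other sequence were not analysed here.

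The DNA at the 6 strongest regions that lie outside exons shows which sites were found under the 3 peaks. For each, 160 bp about the midpoint are given (hg19, forward strand), with AP-1 sites (TGACTCA), E-boxes and E2F sites on either strand in capitals.
D1, upstream of SEPTIN9, chr17:75251567-75251726: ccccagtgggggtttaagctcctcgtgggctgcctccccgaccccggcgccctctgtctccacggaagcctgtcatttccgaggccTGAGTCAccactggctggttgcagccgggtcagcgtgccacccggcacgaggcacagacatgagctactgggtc
D2, upstream of ANO1, chr11:69794596-69794755: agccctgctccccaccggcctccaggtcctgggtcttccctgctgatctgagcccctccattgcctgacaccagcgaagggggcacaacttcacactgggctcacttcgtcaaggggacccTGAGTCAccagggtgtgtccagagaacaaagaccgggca
D3, intron, near CAMKK2, chr12:121714878-121715037: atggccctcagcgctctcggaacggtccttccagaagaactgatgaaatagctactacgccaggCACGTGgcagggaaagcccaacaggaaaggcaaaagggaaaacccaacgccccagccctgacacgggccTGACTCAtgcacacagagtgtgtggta
D4, intron, near ERCC1, chr19:45959109-45959268: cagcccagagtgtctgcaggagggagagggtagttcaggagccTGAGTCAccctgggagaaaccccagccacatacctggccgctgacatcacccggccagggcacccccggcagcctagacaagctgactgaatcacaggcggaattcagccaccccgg
D5, intron, near PEMT, chr17:17465133-17465292: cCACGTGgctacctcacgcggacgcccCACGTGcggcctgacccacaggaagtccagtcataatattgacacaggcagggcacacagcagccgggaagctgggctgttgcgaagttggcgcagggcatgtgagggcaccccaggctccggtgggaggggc
D6, intron, near SOCS3, chr17:76326927-76327086: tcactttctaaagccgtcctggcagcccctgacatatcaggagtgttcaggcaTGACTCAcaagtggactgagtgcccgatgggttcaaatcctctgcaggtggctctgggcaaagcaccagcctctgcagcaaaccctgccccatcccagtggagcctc

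D1, D2, D4 and D6 held an AP-1 site, D5 held 2 E-boxes, and D3 held both kinds of site. In D2 the AP-1 site was centred on the Fra-1 summit, 130 bp from the MYC summit and 87 bp from the E2F1 summit. In D3 the E-box was centred 3 bp from the MYC summit, and the AP-1 site lay 45 bp from the Fra-1 summit and 66 bp from the MYC summit. In D5 the nearer E-box lay 8 bp from the MYC summit and 14 bp from the Fra-1 summit. D4 also held an E-box within 100 bp of its midpoint, outside the bases shown. Other strong regions held none of the 3 motifs, and the first pair of these outside exons is given in the same way.
D10, intron, near KLC1, chr14:104091302-104091461: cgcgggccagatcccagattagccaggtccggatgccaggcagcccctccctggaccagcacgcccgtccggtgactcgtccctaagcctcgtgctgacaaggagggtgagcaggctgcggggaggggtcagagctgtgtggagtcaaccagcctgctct
D12, intron, near FMNL1, chr17:43302833-43302992: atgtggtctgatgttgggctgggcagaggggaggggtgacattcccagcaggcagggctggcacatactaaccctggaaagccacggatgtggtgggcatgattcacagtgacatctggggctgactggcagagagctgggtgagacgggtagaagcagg

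D10 and D12 nevertheless had fold enrichments of 12.98 and 11.5 for Fra-1, 10.9 and 10.6 for MYC, and 21.9 and 41.2 for E2F1. These letters describe the motifs searched and nothing else in the window.

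Fold enrichment is the pileup of fragments at a peak summit over the local input background. At D1, which lay 25004 bp upstream of SEPTIN9, a gene for a cytoskeletal septin, it was 40.7 (Fra-1), 14.6 (MYC) and 29.5 (E2F1). At D2, 37337 bp upstream of ANO1, the gene for a calcium-activated chloride channel, it was 18.4 (Fra-1), 13.5 (MYC) and 33.0 (E2F1). At D3, near CAMKK2, which encodes a kinase that activates AMPK, the values were 19.7, 13.4 and 14.4 in the same order of factors. At both D1 and D3 Fra-1 was the strongest of the 3 factors, whereas at D2 it was E2F1. D4 lay 5206 bp from the nearest TSS, of the DNA repair gene ERCC1, and 12064 bp upstream of FOSB, with 30.5 (Fra-1), 12.8 (MYC) and 14.1 (E2F1). D5, in an intron and 15566 bp downstream of the TSS of PEMT, a phospholipid methyltransferase gene, had 15.9, 12.7 and 18.4. D6, 29148 bp downstream of the TSS of SOCS3, a feedback inhibitor of cytokine signalling, had 13.1, 12.0 and 24.6. MYC was the weakest of the 3 at each of D1 to D6.

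The remaining 14 of the 20 strongest regions had as nearest protein-coding gene TIMP2 (a metalloproteinase inhibitor), PEMT again, PGF (a growth factor of the VEGF family), KLC1 (a kinesin light chain), SH3GL1 (endophilin A2), FMNL1 (a formin), FOSL2 (the Fra-2 subunit of AP-1), SYNE3 (nesprin-3), an unnamed gene, FOXS1 (a forkhead factor), PTPN1 (a tyrosine phosphatase), GNG7 (a G protein subunit), RPTOR (a subunit of mTORC1) and ADAMTS17 (a secreted protease). Their Fra-1 values ran from 10.3 at D15 to 35.98 at D16, near FOXS1. MYC was not the weakest factor at only D14 and D15 of the 20. D15 held the largest MYC fold enrichment of all 412 regions, 17.3, with 10.3 for Fra-1 and 15.8 for E2F1. The largest Fra-1 value, 65.2, was at D36, which lay 3497 bp downstream of the TSS of WNT7B and had 8.97 for MYC and 29.8 for E2F1. The largest E2F1 value, 86.5, was at D117, 158999 bp from the nearest protein-coding TSS, of TFCP2L1, with 13.99 for Fra-1 and 7.16 for MYC. The strongest region for one factor was thus a different one for each.

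**Figure D1:**
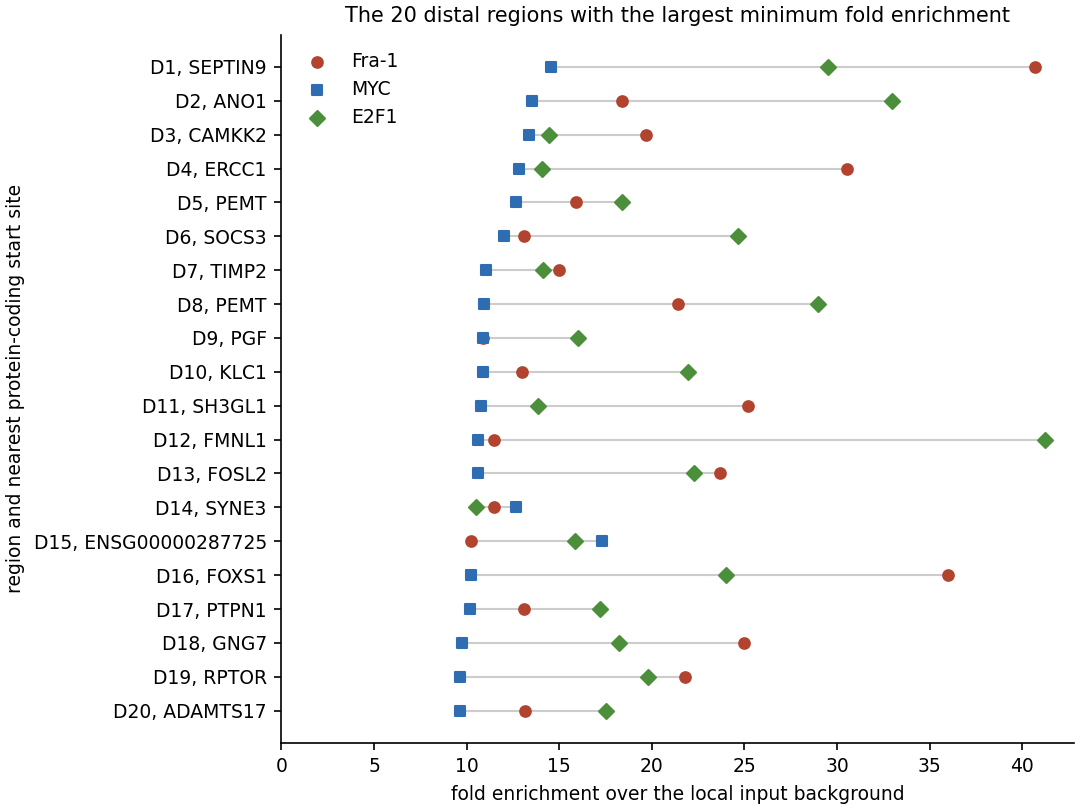
Fold enrichment over the local input background (horizontal axis, linear) of Fra-1, MYC and E2F1 at the 20 distal regions with the largest minimum over the 3 factors, each with the gene of its nearest protein-coding start site. Each point is 1 peak of 1 library, and the grey line spans the 3 values. MYC is the leftmost point except at D14 and D15, and the Fra-1 and E2F1 points lie between 10.3 and 41.2.

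Across all 412 regions MYC had the smallest fold enrichment in 351 (85.2%), Fra-1 in 33 and E2F1 in 28. Fra-1 was the strongest in 214 (51.9%), E2F1 in 185 (44.9%) and MYC in 13 (3.16%). In the promoter stretches E2F1 was the strongest in 497 of 615 (80.8%) and Fra-1 in 105 (17.1%). The libraries differ in depth, with 12931227 tags kept from the Fra-1 library, 23853621 from MYC and 18056168 from E2F1, so the order of factors is only roughly comparable, and the peak calls that chose the regions used these same values. The MYC peaks rested on few fragments, with a pileup of 6 to 30 and a median of 12, against medians of 32 for Fra-1 and 32 for E2F1. Over the regions, the Spearman correlation of fold enrichment was 0.321 between Fra-1 and E2F1, 0.196 between MYC and E2F1 and 0.0989 between Fra-1 and MYC. The values of a region share the input, so these correlations are a description.

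The fold enrichments of the distal regions and of the promoter stretches were compared as a description, with no test, since the peak calls that chose both sets rest on these values. The median fold enrichment of Fra-1 was 13.8 in distal regions and 8.82 in promoter stretches, and 68.0% of distal regions against 37.9% of promoter stretches lay above the pooled median. For E2F1 the medians were 14.04 and 24.96, with 27.9% and 64.7% above the pooled median. For MYC they were 6.50 and 6.99, with 41.3% and 55.8% above it. When peaks had to cover at least 50% of each other, 93 distal and 39 promoter stretches were left. In that setting the Fra-1 difference was 9.10 percentage points, the MYC difference 1.82 points and the E2F1 difference 5.46 points, and the last 2 had the opposite sign to those above.

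A second comparison set was made of the 6866 distal stretches with Fra-1 and E2F1 peaks that no MYC peak touched. There the median fold enrichment was 9.50 for Fra-1 and 7.09 for E2F1, against 13.8 and 14.04 in the distal 3-factor regions. Above the pooled median lay 71.4% of the 3-factor regions and 48.7% of the stretches without MYC for Fra-1, and 88.1% and 47.5% for E2F1, again as a description. The input background moved with this difference: its median at the Fra-1 peaks was 1.05 in the 3-factor regions and 1.94 in the stretches without MYC, and at the E2F1 peaks 1.01 and 1.94. The pileup, which is not divided by the background, had medians of 32 and 28 for Fra-1 and of 32 and 20 for E2F1. The part of the background in the result was not tested. The third set, 204 distal stretches with MYC and E2F1 but no Fra-1 peak, had a median MYC value of 6.33 and a median E2F1 value of 12.9, against 6.50 and 14.04 in the 3-factor regions.

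**Figure D2:**
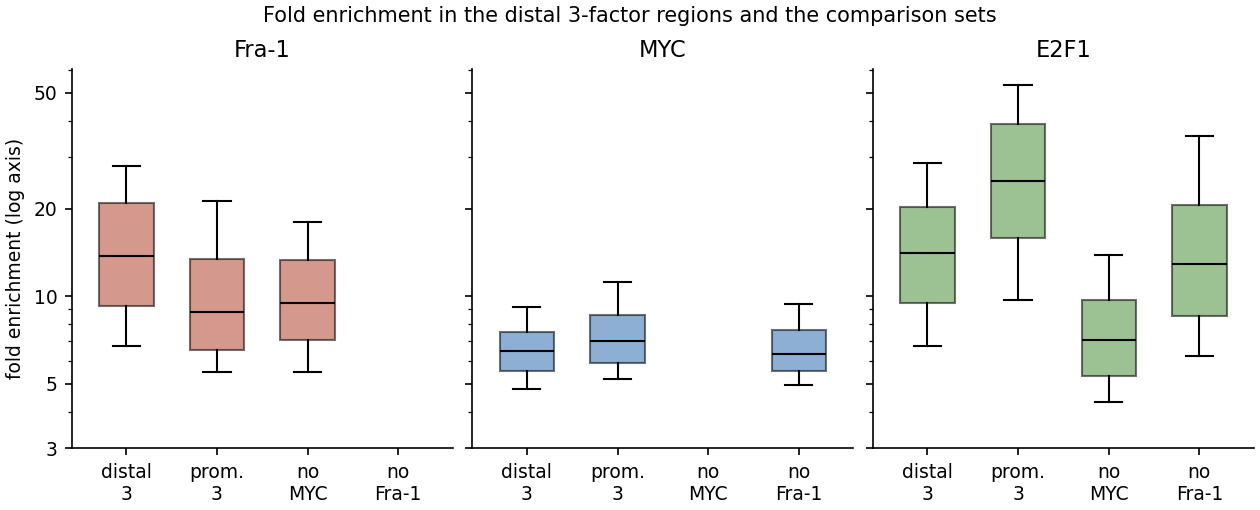
Fold enrichment (vertical axis, logarithmic) of each factor in the 412 distal 3-factor regions (distal 3), the 615 promoter stretches (prom. 3), the 6866 distal Fra-1 and E2F1 stretches without MYC and the 204 distal MYC and E2F1 stretches without Fra-1. Boxes span the middle 50% of regions with the median as a line, and whiskers reach the 10th and 90th percentiles. Fra-1 sits highest in the distal 3-factor regions, with a median of 13.8, and E2F1 in the promoter stretches, with a median of 24.96.

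The AP-1 site was the most frequent of the 3 motifs in the distal 3-factor regions. It was present within 100 bp of the midpoint in 224 of 412 regions (54.4%, 95% Wilson interval 49.5 to 59.1), against 3.23% of 24022 distal windows of the same length placed every 100 kb along the genome and 2.55% of windows 2 kb to either side of the regions. Promoter stretches held it in 37.2% (adjusted Fisher p = 1.85e-07), stretches with MYC and E2F1 but no Fra-1 peak in 6.37% (adjusted Fisher p = 2.08e-34), and stretches without MYC in 58.2% (adjusted Fisher p = 0.182). These p-values come from two-sided tests of Fisher (exact) with Benjamini-Hochberg adjustment over a family of 19. That family includes the planned tests of fold enrichment and summit distance, which are not reported as tests. Small p-values among those can lower the adjusted values of the others. The reversed letters ACTCAGT, which have the same composition, were found in 5.34% of the 3-factor regions. The GC content of the windows differed between sets, with medians of 58.2% in distal 3-factor regions, 62.7% in promoter stretches, 47.3% without MYC and 63.2% without Fra-1. Among windows of 50 to 60% GC, a setting chosen after seeing the data, the AP-1 share was 52.2% in 203 distal regions and 45.4% in 196 promoter stretches, and that difference did not pass the test (adjusted Fisher p = 0.306). In the same windows it was 62.6% without MYC, above the 3-factor regions (adjusted Fisher p = 0.0120), and 8.93% without Fra-1 (adjusted Fisher p = 5.54e-09).

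The E-box separated the regions from stretches that MYC did not touch. It was present in 76 of 412 regions (18.4%, 15.0 to 22.5), against 2.16% of the stretches without MYC (adjusted Fisher p = 1.47e-39), 1.54% of the genome windows and 3.89% of the flanking windows. In promoter stretches it was present in 15.8%, a difference that did not pass the test (adjusted Fisher p = 0.342), and it was more frequent in stretches with MYC and E2F1 but no Fra-1, at 36.8% (adjusted Fisher p = 3.39e-06). Among windows of 50 to 60% GC the E-box shares were 22.2% in the 3-factor regions, 2.77% without MYC (adjusted Fisher p = 3.29e-21) and 44.6% without Fra-1 (adjusted Fisher p = 0.00332). The reversed E-box letters, GTGCAC, were found in 6.31% of the 3-factor regions and 3.47% of the stretches without MYC (adjusted Fisher p = 0.0164 over 39 tests). With the 3 lists cut to equal size, which left 33 distal regions, the E-box difference from stretches without MYC was 2.94 percentage points (adjusted Fisher p = 0.819), and the AP-1 difference from promoter stretches turned to -9.55 points (adjusted Fisher p = 0.611). The E-box difference from stretches without Fra-1 was -11.2 points in that setting (adjusted Fisher p = 0.439) and -16.0 points with the 50% overlap (adjusted Fisher p = 0.134). The E2F site, searched as TTTCCCGC, TTTCGCGC, TTTGCCGC or TTTGGCGC, was found in 3 of 412 regions (0.728%, 0.248 to 2.12), against 0.25% of the genome windows, and no difference passed the test, against promoter stretches with 2.44% (adjusted Fisher p = 0.0878), stretches without MYC with 0.539% (adjusted Fisher p = 0.551) and stretches without Fra-1 with 0.490% (adjusted Fisher p = 1). The difference from promoter stretches did pass, with the lower share in the regions, in some other settings. These were a search about the E2F1 summit, within 50 bp or in the whole stretch, and promoter windows of 1 kb either side.

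**Figure D3:**
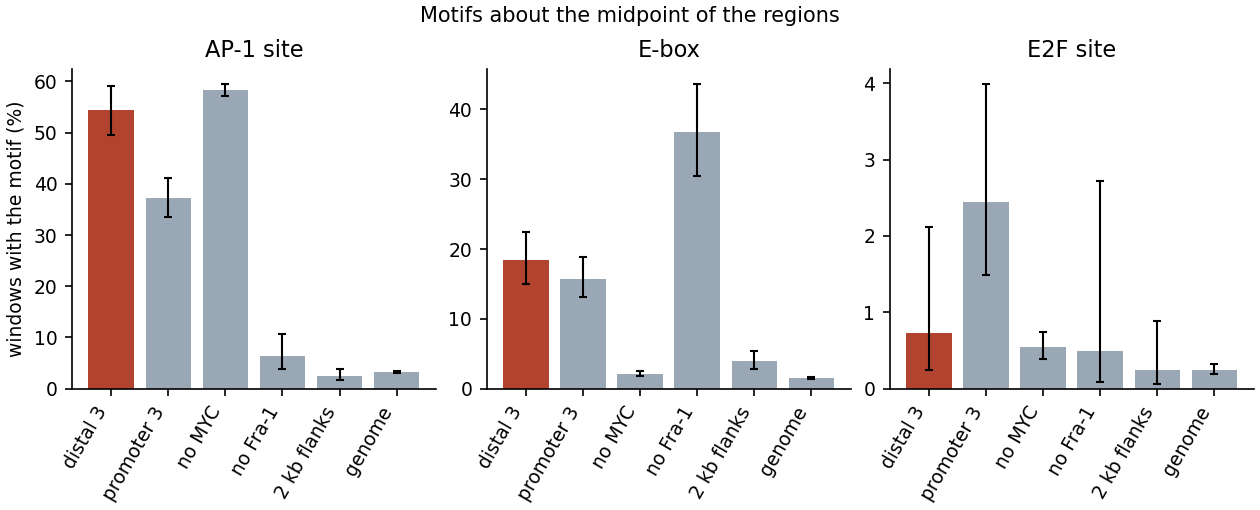
Share of windows reaching 100 bp either side of the midpoint that hold an AP-1 site, an E-box or an E2F site on either strand (vertical axes, percent, on a different scale in each panel), with 95% Wilson intervals, in the distal 3-factor regions (red), the 3 comparison sets, the windows 2 kb to either side of the regions and windows every 100 kb of the genome. The distal 3-factor regions hold AP-1 sites nearly as often as stretches without MYC (54.4% and 58.2%) and E-boxes more often than these (18.4% and 2.16%).

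The AP-1 site was present in 54.4% of regions and the E-box in 18.4%. Whether the 2 sites met in the same region more or less often than these shares give was not tested. An AP-1 site and an E-box occurred together in 41 regions (9.95%), the AP-1 site without an E-box in 44.4%, the E-box without an AP-1 site in 35 (8.50%), and none of the 3 motifs in 152 (36.9%). The median Fra-1 fold enrichment was 12.1 in the 153 regions with neither an AP-1 site nor an E-box, 14.2 in the 187 regions with 1 AP-1 site and 22.997 in the 36 regions with 2. The median MYC value changed less, at 7.27 in regions with an E-box, whether or not they held an AP-1 site, 6.46 in those with only the AP-1 site of the pair and 6.36 in those with neither. For E2F1 the order was the other way, with a median of 15.4 in the regions with neither site, 14.4 with the AP-1 site alone and 10.5 with the E-box, with or without an AP-1 site. These medians are a description, since the same fold enrichments gave the peaks.

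Within the regions, AP-1 sites lay closest to the Fra-1 summits, while E-boxes lay nearer the MYC summits in regions that also held an AP-1 site. In the 249 regions with an AP-1 site within 150 bp of the midpoint, the median distance to the nearest one was 18 bp from the Fra-1 summit, 49 bp from the MYC summit and 49 bp from the E2F1 summit. It lay within 25 bp of the Fra-1 summit in 60.6% of them, of the MYC summit in 25.3% and of the E2F1 summit in 31.7%. In the 87 regions with an E-box in that window, the median distance was 36 bp from the MYC summit, 53 bp from the Fra-1 summit and 68 bp from the E2F1 summit. A total of 53 regions had both sites in that window. Among these the AP-1 site was the nearer one to the Fra-1 summit in 43 and the E-box in 10, while at the MYC summit the E-box was nearer in 32, the AP-1 site in 20, and in 1 they were equally far. At the E2F1 summit the AP-1 site was nearer in 36 and the E-box in 17. In the 34 regions with an E-box and no AP-1 site in that window, the E-box was about as far from the Fra-1 summit, with a median of 38 bp, as from the MYC summit, with 38.5 bp. Sites were searched about the midpoint and not about each summit, so a site closer to a summit can be missed. The stretch contained the MYC summit in 92.2% of regions, the Fra-1 summit in 74.3% and the E2F1 summit in 69.2%. Distances are thus not fully comparable between factors, and the effect of this was not tested.

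**Figure D4:**
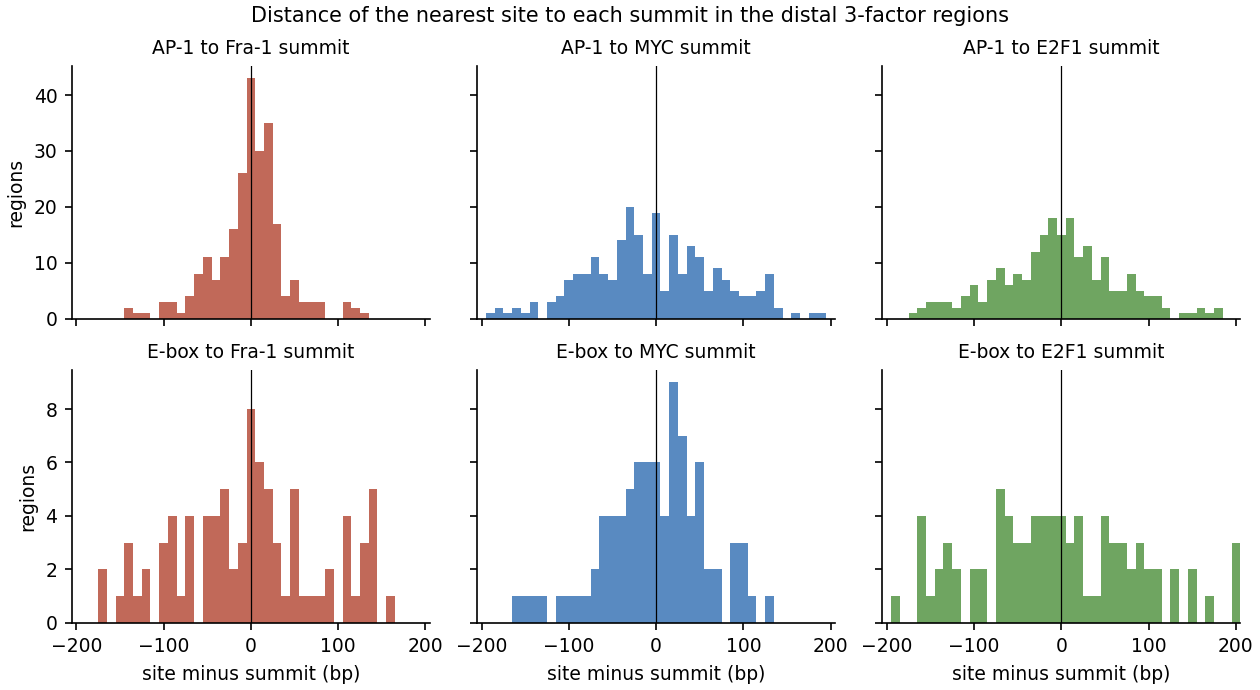
Distance in bp from each summit to the nearest AP-1 site (upper row, 249 regions) and E-box (lower row, 87 regions) in the distal 3-factor regions, as counts of regions in bins of 10 bp. Only sites within 150 bp of the region midpoint were searched, so a site closer to a summit can be missed. Regions beyond the plotted range are left out, at most 25 in a panel. The AP-1 sites crowd around the Fra-1 summit, with a median distance of 18 bp, and spread more widely around the MYC and E2F1 summits, each with a median of 49 bp.

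The rule asks that the 3 peaks overlap, which limits how far apart their summits can lie, so the summit distances are a description. The median distance was 42.5 bp between the Fra-1 and MYC summits, 37 bp between Fra-1 and E2F1 and 46 bp between MYC and E2F1. In 128 regions (31.1%) all 3 summits lay within 50 bp of each other, against 22.8% of promoter stretches, as a description. The Fra-1 and MYC summits were within 50 bp in 55.6% of distal regions and 52.5% of promoter stretches, also as a description. The overlap stretches themselves were 11 to 424 bp wide, with a median of 132.5 bp. They contained the MYC summit in 92.2% of regions, the Fra-1 summit in 74.3% and the E2F1 summit in 69.2%. E2F1 peaks were the widest, with a median of 461 bp against 258 bp for Fra-1 and 152 bp for MYC.

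A set of 10 further motifs and of 3 motifs with their letters reversed was searched in the same windows, which gave 39 tests with a separate adjustment. The SP/KLF site GGGCGG occurred in 15.5% of the 3-factor regions, above the 6.52% of stretches without MYC (adjusted Fisher p = 3.53e-08) and below the 30.4% of promoter stretches (adjusted Fisher p = 7.00e-07) and the 34.3% of stretches without Fra-1 (adjusted Fisher p = 3.43e-06). Among windows of 50 to 60% GC it was in 9.36% of the regions, in 10.6% of stretches without MYC (adjusted Fisher p = 0.9498) and in 21.9% of promoter stretches (adjusted Fisher p = 0.0208). The TEAD site GGAATG occurred in 22.6% of regions, 15.4% of promoter stretches (adjusted Fisher p = 0.0151) and 10.3% of stretches without Fra-1 (adjusted Fisher p = 0.00107). The RUNX site TGTGGT occurred in 23.3%, 13.5% (adjusted Fisher p = 7.20e-04) and 12.3% (adjusted Fisher p = 0.00412) of the same sets. In the stretches without MYC the shares were 22.5% for the TEAD site (adjusted Fisher p = 1) and 21.7% for the RUNX site (adjusted Fisher p = 0.620), so neither difference from that set passed the test. The ETS site (CAGGAAG or CCGGAAG) occurred in 22.1% of regions and 17.1% of stretches without MYC (adjusted Fisher p = 0.0320), and with motifs searched in the whole stretch this difference turned to -0.856 points (adjusted Fisher p = 0.701). Evenly spaced genome windows held the SP/KLF site in 2.04%, the TEAD site in 10.4% and the RUNX site in 13.7%.

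The site of NRF and MAF proteins, TGACNNNGC, occurred in 24.3% of the 3-factor regions, 15.6% of promoter stretches (adjusted Fisher p = 0.00282), 17.1% without MYC (adjusted Fisher p = 0.00190) and 14.7% without Fra-1 (adjusted Fisher p = 0.0164), and in 6.12% of genome windows. These letters can overlap an AP-1 site followed by GC. FOX sites (TGTTTAC or TGTTTGC, 9.95%) and C/EBP sites (TTGCNNAA, 8.50%) were more frequent than in promoter stretches, with 4.39% (adjusted Fisher p = 0.00295) and 3.74% (adjusted Fisher p = 0.00473), and FOX sites also than in stretches without Fra-1, with 4.41% (adjusted Fisher p = 0.0421). In stretches without MYC the shares were 11.4% for FOX (adjusted Fisher p = 0.589) and 12.2% for C/EBP (adjusted Fisher p = 0.0508), and in genome windows 6.93% and 11.2%. GATA sites (AGATAA) were found in 3.64% of regions and 8.72% of stretches without MYC (adjusted Fisher p = 8.66e-04), and the CRE (TGACGTCA) in 0.485% of regions and 3.90% of promoter stretches (adjusted Fisher p = 0.00190). In all, 17 of the 39 tests passed, and among windows of 50 to 60% GC 1 did, that of the SP/KLF site against promoter stretches.

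The regions lay mostly in introns and within 50 kb of a TSS, as did the stretches without MYC. By their midpoint, 241 (58.5%) were intronic, 149 (36.2%) intergenic and 22 (5.34%) exonic. The intronic share was 60.05% in the stretches without MYC (adjusted Fisher p = 0.565) and 39.7% in those without Fra-1 (adjusted Fisher p = 2.29e-05). The median distance to the nearest TSS was 8957.5 bp, and 119 regions lay within 5 kb, 110 from 5 to 10 kb, 163 from 10 to 50 kb and 20 farther than 50 kb. Counting start sites of protein-coding genes alone, the median was 15528 bp and 92 regions (22.3%) lay more than 50 kb away. Just outside the promoter windows, D105 was 3 bp from one, with fold enrichments of 11.3, 7.27 and 19.0 for Fra-1, MYC and E2F1, and 4 regions lay within 100 bp. On the other side of the rule, 10 promoter stretches reached only partly into a window, and the one that reached in least, on chromosome 22, had values of 5.05, 5.01 and 11.9. The narrowest region, D230, had 8.51, 6.03 and 16.6. A MYC peak lay within 100 bp of 15 stretches of the set without MYC, and a Fra-1 peak within 100 bp of 16 stretches of the set without Fra-1.

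Distal 3-factor binding took up a large part of distal MYC binding and a small part of that of the other factors. The regions took their values from 408 distinct MYC peaks, set against 695 distal MYC peaks (58.7%). For Fra-1 these numbers were 399 and 12744 (3.13%), and for E2F1 391 and 11812 (3.31%). A wide peak that gave such a value may also reach a promoter window. MYC had the shortest list, 4867 peaks against 17320 for Fra-1 and 36933 for E2F1, which limits how many regions there can be. A total of 42 regions shared a peak of at least 1 factor with another region, so they are not all independent. The regions were spread unevenly over the chromosomes. Chromosome 17 held 41 regions, chromosome 10 held 36, chromosome 20 held 32, and chromosomes 1 and 19 held 30 each. Per length, chromosomes 17, 19 and 20 had the most, with 0.505, 0.507 and 0.508 regions per Mb, followed by chromosome 10 with 0.266. On chromosome X there was none. It also held few of the other stretches, 101 of those without MYC (1.47% of that set) and 4 promoter stretches (0.650%). As a description, chromosome 17 held 9.95% of the regions, 11.4% of the promoter stretches and 3.82% of the stretches without MYC.

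**Figure D5:**
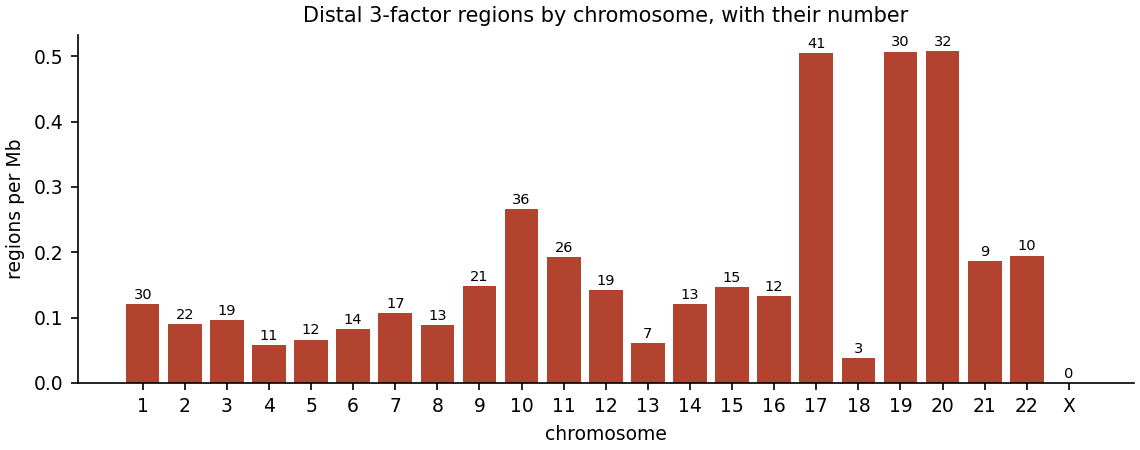
Distal 3-factor regions per Mb of chromosome length (vertical axis, starting at 0) for chromosomes 1 to 22 and X, with the number of regions above each bar. Chromosomes 17, 19 and 20 stand at 0.505 to 0.508 per Mb, and X has none.

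Most regions stood alone. After joining regions within 10 kb of each other there were 368 loci, of which 330 held 1 region, 32 held 2 and 6 held 3. In TNFRSF1A, which encodes a receptor of TNF, 3 intronic regions lay within 0.751 kb, and one of them, D39, had 8.78 (Fra-1), 14.9 (MYC) and 41.3 (E2F1) and held both an AP-1 site and an E-box. In MYOF (myoferlin, a membrane repair protein) 3 regions lay within 0.693 kb under 1 value of 6.49 for Fra-1 and 1 of 27.0 for E2F1, with MYC values of 9.97, 5.47 and 6.83. In AHNAK2, 3 regions within 1.10 kb had MYC values of 7.27, 7.27 and 4.56 and a single E2F1 value of 19.0. In BCAR3, an adaptor of integrin signalling, 3 intronic regions had Fra-1 values of 28.1, 16.7 and 21.3. The locus nearest to DUSP5, a phosphatase that inactivates ERK, lay about 83 to 89 kb upstream of its TSS, with Fra-1 values of 20.5, 18.4 and 18.4. The locus nearest to the cytokine gene LIF lay between LIF and OSM, with 7.604, 9.33 and 30.6 for Fra-1 and 26.5, 31.04 and 31.04 for E2F1. The next 4 loci, of 2 regions each, were those near SEPTIN9, SOCS3, ANO1 and H2BC12L, the last also near SIK1. D31, the second region near SOCS3, had 47.0 (Fra-1), 9.16 (MYC) and 26.4 (E2F1) and held 2 AP-1 sites.

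Genes were linked to a region that lay inside them or within 50 kb of one of their start sites. By this rule 605 of 20098 protein-coding genes (3.01%) had a distal 3-factor region, 189 of them with a region inside the gene, and 67 regions had no such gene. A linked region had a median of 2 genes and at most 10, so a link is a matter of position alone. TIMP2, CEP295NL and GNG7 each had 5 regions, and ANO1, RPTOR, RASA3 and BCAR3 had 4 each. TIMP2 and CEP295NL shared regions: none of those of CEP295NL lay inside that gene, and D7, D38 and D288 among them lay nearest to TIMP2. The 5 TIMP2 regions had MYC values of 11.05, 8.84, 6.95, 5.60 and 5.46 and E2F1 values of 14.1, 24.1, 33.2, 24.1 and 33.2, and 3 of them lay inside the gene.

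Genes of the AP-1 family itself were among those with regions. Of its 16 genes, 5 (31.25%) had one, against the 3.01% of all protein-coding genes, a difference that was not tested. Only 3 of the 16 were the nearest protein-coding gene to a region. FOSL2 had 2, D13 at 32939 bp upstream with 23.7 (Fra-1), 10.6 (MYC) and 22.3 (E2F1), and D346 inside the gene with 15.1, 5.01 and 19.0. FOSL1, which encodes Fra-1, had D140 at 2731 bp and D141 at 11130 bp upstream. D140 had 24.2 (Fra-1), 6.81 (MYC) and 23.2 (E2F1), and D141 had 10.9, 6.81 and 33.9. FOSB had D4, JUND had D189 with 9.07, 6.44 and 28.2. JUN, which is named here after its values were seen, had D389 with 12.7, 4.20 and 10.5. No distal 3-factor region lay within 50 kb of the genes for the other two factors: the nearest to MYC was D284, 370.057 kb away, and the nearest to E2F1 was D282, 1626.13 kb away.

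Among integrins, laminins and focal adhesion proteins, 8 of 32 genes (25%) had a region, against 3.01% of all protein-coding genes, a difference that was not tested. LAMA5, a laminin chain, had 3, of which D26 and D270 shared the values of 27.1 for Fra-1 and 20.9 for E2F1 and had 9.52 and 5.69 for MYC. ITGA3, an integrin chain, had D181 with 25.2, 6.47 and 17.6 and D252 with 5.91, 6.13 and 19.9. ACTN4, an actinin that crosslinks actin, had D102 with 7.27, 9.30 and 10.3. The other 5 genes had 1 each.

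Among growth factor signalling genes, EGFR had D192, in an intron, with 10.9 (Fra-1), 6.41 (MYC) and 13.4 (E2F1), and its ligand HBEGF had D190 with 6.43, 6.63 and 12.1, and these were 2 of the 12 genes of that list. Of 17 MAPK feedback genes, IER2 had 2 regions and DUSP5 had 1, D340. Of 17 genes of TGF-beta signalling, TGFB1 had D148 with 10.5, 6.73 and 11.8, and SMAD3 had D338 with 22.5, 5.12 and 22.1. LIF, with 3 regions that were also linked to OSM, was the only one of 16 cytokine genes. TIMP2 was the 1 of 15 matrix proteinases and inhibitors, SNAI1 (Snail, D49) the 1 of 12 EMT factors and cadherins, and ID1, with 2 regions, the 1 of 15 annotated lung metastasis genes of the LM2 lineage. The shares in these lists ran from 6.25% (cytokines) to 16.7% (EGFR and ligands), beside 3.01% of all protein-coding genes. They rest on 1 or 2 genes per list, and a difference from 3.01% was not tested.

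In lists of growth and replication genes the shares were near that of all protein-coding genes. No region was linked to the 23 genes of nucleolar ribosome biogenesis, and 1 of 30 DNA replication genes had one, CDC6. Its linked region D277 lay 13866 bp downstream of its TSS with 45.4 (Fra-1), 5.69 (MYC) and 24.6 (E2F1). D277 lay nearer to the TSS of RARA, 3525 bp upstream of it. No region was linked to the 18 genes of the YAP, TEAD and target list, the 13 NF-kB genes or the 15 S100 genes, of which 2, 0 and 0 had a region within 100 kb. These shares stand beside 3.01% of all protein-coding genes, and gene length and the number of start sites, which set how much sequence a gene can be linked to, were not tested.

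A signature of 31 genes was chosen by the study for its dependence on Fra-1 in cells of this lineage, so the list is not independent of Fra-1. The study also required prognostic value in breast cancer patients and higher expression in those with a poor prognosis. Of these 31 genes, 5 (16.1%) had a distal 3-factor region within reach, against 3.01% of all protein-coding genes, a difference that was not tested. A region lay inside 2 of them, SH3GL1 and ADORA2B. Only these 2 of the signature genes were also the nearest protein-coding gene to a region. SH3GL1 encodes endophilin A2, which acts in endocytosis, and its intronic region D11, 5500 bp downstream of the TSS, had 25.2 (Fra-1), 10.8 (MYC) and 13.9 (E2F1). ADORA2B encodes an adenosine receptor, and its intronic region D27, 9335 bp downstream of the TSS, had 23.8, 9.39 and 15.4. D11 was also within 50 kb of CHAF1A, a histone chaperone subunit gene, at 27848 bp upstream. SEC14L1 was linked to D1 and D85, 42850 and 42420 bp downstream of its TSS, and CHMP1A to D194 with 8.38, 6.36 and 9.47. The bases about the midpoints of the 2 regions inside signature genes, chosen after their values were seen, are given with AP-1 sites in capitals.
D11, intron of SH3GL1, chr19:4374709-4374868: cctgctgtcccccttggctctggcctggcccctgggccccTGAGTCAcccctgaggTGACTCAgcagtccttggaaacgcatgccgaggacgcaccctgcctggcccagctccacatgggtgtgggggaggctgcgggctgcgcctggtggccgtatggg
D27, intron of ADORA2B, chr17:15857699-15857858: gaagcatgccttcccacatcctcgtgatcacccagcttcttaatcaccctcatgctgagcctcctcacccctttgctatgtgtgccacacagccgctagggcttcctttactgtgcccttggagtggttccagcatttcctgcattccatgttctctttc

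In D11 the 2 AP-1 sites were centred 8 bp to either side of the Fra-1 summit, and the MYC summit lay 64 and 48 bp from them. D27 had none of the 3 motifs in the bases shown.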

How the data were processed

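Peak lists from ChIP-Seq in untreated LM2 cells were used, 1 library each for E2F1, Fra-1 and MYC. The EZH2 and input libraries gave no peak list used here, and another TF and histone marks were not used. Per the labels, reads were trimmed with Trimmomatic 0.27, aligned with Bowtie 0.12.5 and handled with SAMtools. The authors aligned to a masked hg19 genome, removed duplicates and ran MACS2 2.0.10 on each library against 1 input library, of which 10758036 tags were kept. No samples were pooled. The deposited lists give the signal (pileup of fragments at the summit), the fold enrichment, a ratio of pileup to local background with 1 added to both, and −log10 p- and q-values.

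Peaks were intersected from 1 bp on chromosomes 1 to 22 and X, and abutting pieces were joined. GRCh37 and GENCODE 44 mapped to GRCh37 (63827 genes) gave sequence, start sites and promoter windows. The strongest overlapping peak of each factor gave a region's values. The background was recovered from pileup and fold enrichment and is approximate. Either strand was searched for motifs up to 100 bp from the midpoint. Shares were compared with two-sided Fisher tests (exact), adjusted after Benjamini and Hochberg over 19 planned tests and, for the other motifs, 39. Planned tests of fold enrichment and summit distance are not reported as tests, because the peak calls chose the regions. Regions are not replicates, and intervals cover counting error only.

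The genes named were those nearest to the 20 strongest regions, those at the 10 loci with most regions, up to 4 members of each gene list, and the signature and factor genes; some are not reported here. The members and lists were chosen with earlier results of these data known. The alternatives were stricter peak thresholds, equal list sizes, other overlap rules, promoter windows, motif windows and gene links, and, chosen after seeing the data, a band of GC content and 1 region per locus. Procedures were tested on simulated data. Scripts ran under Python 3.11.15 with scipy 1.17.1, pysam 0.24.0, pandas 2.3.3, numpy 2.4.6 and matplotlib 3.10.9.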

Additional observations from a re-analysis of the deposited data

Results flagged for a closer look

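The 3 factors also shared 4 stretches on sequences outside chromosomes 1 to 22 and X, which the report did not use. All 4 lay on 1 unplaced contig, chrUn_gl000220, with fold enrichments of 2.46 to 9.18 (Fra-1), 2.53 to 6.63 (MYC) and 2.34 to 3.79 (E2F1) over the shared input library. All lay above the input, which the peak calls themselves require. This contig is known to carry ribosomal RNA genes, whose copies share reads. The pileups there were 44 to 50 fragments (Fra-1), 36 to 38 (MYC) and 36 to 45 (E2F1).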

How the results depend on the processing

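Each factor had 1 library, so no library could be left out, and no paired analysis was possible because no factor has replicates. Values below are differences in percentage points, distal regions minus the comparison set, unless a count or a share is named. Fold enrichments and summit distances are descriptions here and are left out of the following counts. Of 283 values for the 22 motif and intron results that passed the test, 180 kept their direction and passed, 96 kept their direction and did not pass, and 7 turned the other way. Of 75 values for the 6 planned results that did not pass, 50 stayed so in the same direction, 18 turned the other way, and 7 passed in the same direction. Except where the smaller number of regions is the setting itself, the cause was not tested.

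The number and share of distal regions followed the rule. With a −log10 q of at least 5 there were 246, with peaks covering 50% of each other 93 (70.5% of stretches), with lists of equal size 33 (31.1%), and more than 10 kb from every start site 17.8% of stretches stayed distal. The share was 49.8% with promoter windows of 1 kb either side and 46.6% counting protein-coding start sites alone. Linked genes were 331 by the nearest start site and 1030 within 100 kb. The count of further motif tests that passed was 9 with the higher q, 0 with equal lists, 1 with the 50% overlap, 4 beyond 10 kb, 11 at the E2F1 summit, 7 within 50 bp and 1 in the band of GC content.

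With equal lists, against promoter stretches the difference was -9.55 for AP-1, -4.90 for the E-box, -5.23 for close Fra-1 and MYC summits and -15.4 for MYC fold enrichment. Against stretches without MYC it was 2.94 for the E-box, 26.04 for E2F1 fold enrichment, 13.7 for introns and -0.663 for the SP/KLF site, and against stretches without Fra-1 -11.2 for the E-box, -1.72 for E2F, -30.0 for E2F1 fold enrichment and 19.2 for introns. None of these motif and intron differences passed the test.

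With the 50% overlap, against promoter stretches it was 20.3 for AP-1, 1.08 for E2F, -6.87 for close summits, 9.10, 1.82 and 5.46 for Fra-1, MYC and E2F1 fold enrichment, -8.85 for TEAD and -1.24 for FOX. Against stretches without MYC it was 0.406 for AP-1, and against those without Fra-1 -16.0 for the E-box, 20.4 for introns and -0.215 for FOX. None of the motif and intron differences among these passed the test.

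The motif window moved AP-1 against stretches without MYC to -10.8 within 50 bp, -14.4 in the whole stretch and -10.3 in the band of GC content, all 3 past the threshold. In that band AP-1 against promoter stretches was 6.81 and SP/KLF against stretches without MYC -1.26, neither past it. E2F against promoter stretches passed at -3.01 at the E2F1 summit, -1.46 within 50 bp, -2.11 in the whole stretch and -2.32 with windows of 1 kb. ETS against stretches without MYC was -0.856 in the whole stretch.

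The remaining values concern results that did not pass in the report or were not tested there. E2F against stretches without MYC was -0.0387 with a fold enrichment of at least 5, -0.262 within 50 bp, -0.177 in the band of GC content and -0.510 in the whole stretch. E2F against stretches without Fra-1 was -0.142 beyond 10 kb, -0.252 at the E2F1 summit, -0.490 within 50 bp and in the whole stretch, -1.29 in the band, -1.02 with windows of 1 kb and -1.28 with protein-coding start sites. The intron share against stretches without MYC was 0.0636 beyond 10 kb and 4.55 for introns of protein-coding genes. Against stretches without Fra-1, MYC fold enrichment was -7.57 with the higher q and -0.104 with protein-coding start sites, and E2F1 fold enrichment -6.26 with the latter. With −log10 q in place of fold enrichment these last 2 comparisons gave 10.5 and 10.5.

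The MYC list, with a median pileup of 12 fragments in the regions, limits which regions are found.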
